A study of Mus musculus with 18 samples.

Results

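NF-κB is a family of transcription factors through which B cells answer microbial products, antigen and survival cytokines. The 10 genes described here are its 5 subunits (Nfkb1, Nfkb2, Rel, Rela and Relb) and 5 genes whose products hold it back or tune it (Nfkbia, Nfkbie, Nfkbiz, Bcl3 and Tnfaip3). They were taken by name, through their NCBI gene IDs, from a table of 16545 genes, with earlier results of these data known. All 10 were in the table and all 10 were above 0 FPKM in each of the 18 libraries, so none was lost to a filter on low values.

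In the canonical pathway, dimers of p50 (made from the Nfkb1 product), RelA and c-Rel are kept in the cytoplasm by IκB proteins until the IκB kinase complex marks the IκB for destruction. In the noncanonical pathway, the Nfkb2 product p100 is cut to p52, which acts with RelB. Several inhibitors are themselves NF-κB target genes, among them Nfkbia (IκBα) and Tnfaip3 (the ubiquitin-editing enzyme A20), so that the pathway limits its own activity. LPS, a bacterial cell wall component, reaches NF-κB in mouse B cells through the receptor TLR4.

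Transcripts of splenic B cells from CON and Zbtb24 B-CKO mice were read by RNA-seq on day 0 (D0), day 1 (D1) and day 2 (D2) of culture with LPS, in 3 libraries per genotype and day. B-CKO mice carried Zbtb24 loxp/loxp and a Cre allele active in B cells, which removes the Zbtb24 exon that holds the translation start. Littermate controls (CON) carried the Cre allele with Zbtb24 +/+, so that Cre was stated for both genotypes, and all mice were on the C57BL/6 background. By the methods of the study each replicate of splenic B cells was a separate mouse. The age of the mice, the LPS dose of these cultures and whether a replicate number marks the same mouse on all 3 days were not given in the sources used here.

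The values are FPKM, fragments scaled by the length of the transcript and by the size of the library, and the depth behind a single value is unknown. From the steps between low values of 19 genes, the relative depth of the libraries was about 0.916 to 0.938 at D0 and 1.03 to 1.08 at D1 and D2. The values are rounded, which makes these steps coarse, and the same estimate of 1.0322 recurred across D1 and D2 libraries. The size of the difference in depth between the days is therefore uncertain. Zbtb24 itself lay at 37.1 to 49.6 FPKM in CON and 10.5 to 14.3 in B-CKO at D0, at 15.7 to 18.8 against 10.4 to 11.7 at D1, and at 13.4 to 17.1 against 9.23 to 11.3 at D2, with no overlap between genotypes on any day. Its limma difference was -1.78 at D0 (adjusted p = 0.12), -0.64 at D1 (adjusted p = 0.0586) and -0.50 at D2 (adjusted p = 0.267) on the log2(FPKM + 1) scale.

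The levels of markers of B cells and of other cells were compared in the same libraries. The 7 B cell markers (Cd79a, Cd79b, Ms4a1, Cd22, Pax5, Blk and Cr2) summed to between 3768 and 5004 FPKM in the D0 libraries, against 8.69 to 17.6 for 9 T cell markers, 3.94 to 9.96 for 8 myeloid markers and 5.32 to 15.8 for 4 NK cell markers. Among the dendritic cell markers Clec9a was at 0 in at least one D0 library of each genotype and at most 0.07 FPKM in the others, and Cd14, of the myeloid list, was at most 0.15 FPKM at D0. The 5 dendritic cell markers summed to 23.7 to 29.0 FPKM in CON and 31.6 to 32.2 in B-CKO at D2, of which Flt3 made up 23.2 to 28.7 and 31.4 to 31.9, while Itgax, the dendritic cell integrin, was at 0.08 FPKM or below on that day (at most 0.56 FPKM at D0). The 5 erythroid markers, mostly haemoglobin genes, summed to 15.0 to 37.6 FPKM in CON and 11.7 to 71.1 in B-CKO at D0, overlapping the T cell and NK cell sums, and to 7.51 to 12.7 at D1. The 4 plasma cell markers, a later stage of B cells, summed to 123.0 to 157.7 FPKM at D0, 71.9 to 90.6 at D1 and 140.2 to 249.7 at D2, mostly Jchain and Xbp1. The T cell markers fell with the change from D0 to D1, to sums of 2.10 to 3.12 FPKM at D1 (9 of 9 called lower in both genotypes by limma), and so did the NK cell markers, to 0.44 to 0.56 FPKM (3 of 4 called lower in CON and 4 of 4 in B-CKO). The B cell markers also fell, to sums of 1958 to 2265 FPKM at D1, with 5 of 7 called lower in CON and 6 of 7 in B-CKO. The dendritic cell list was at 2.06 to 3.60 FPKM in CON and 1.95 to 4.17 in B-CKO at D0. At D1 it was higher, at 6.80 to 7.36 and 9.31 to 10.01 FPKM, with 1 of 5 called higher and 2 lower in each genotype. Flt3 rose from a mean of 1.40 to 6.53 FPKM in CON and from 2.08 to 9.03 in B-CKO. Of the myeloid list Itgam rose, from 0.98 to 2.42 and from 0.78 to 1.95 FPKM, with 1 of 8 called higher and 2 lower in CON and 3 lower in B-CKO. The part of these markers in the changes over time was not tested. All 9 genes of a list of immediate-early and heat-shock genes, which respond to tissue dissociation and handling, were far higher at D0 (summed 1332 to 2120 FPKM) than at D1 and D2 (81.5 to 124.8 FPKM) in both genotypes. Each change of an NF-κB gene from D0 to D1 therefore comes together with the fall of these 9 genes, and their part in it was not tested. These are bulk measurements, in which fewer cells of a type and less RNA per cell cannot be told apart.

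Promoter windows from RefSeq (GRCm38.p6, 250 bases before to 50 after an annotated start) were at hand for 7 of the 10 genes. Nfkb1, Relb and Nfkbiz have no window in that set. These 3 genes lie at chr3:135584655-135691969 (Nfkb1), chr7:19606217-19629438 (Relb) and chr16:55811375-55838954 (Nfkbiz) in the same build. The windows were searched on both strands for the κB consensus of 10 bases, the sequence class that NF-κB dimers recognise, with overlapping matches allowed. A match was present in windows of 6 of the 7 genes (Nfkb2, Rel, Nfkbia, Nfkbie, Bcl3 and Tnfaip3), and the window of Rela held none. Over all windows of this length, 8.46% (2779 of 32851) held a match, and of 13151 genes of the table with a window, 1579 had one in at least one window. The 5 windows below are shown because Rel, Tnfaip3 and Bcl3 moved most from D0 to D1 among the genes with a window, Nfkb2 holds the most matches and Nfkbia has the highest mean level, with the matches in capitals and all other bases in lower case, 5′ to 3′ on the strand of the gene.
Rel, chr11:23770920-23771219, minus strand: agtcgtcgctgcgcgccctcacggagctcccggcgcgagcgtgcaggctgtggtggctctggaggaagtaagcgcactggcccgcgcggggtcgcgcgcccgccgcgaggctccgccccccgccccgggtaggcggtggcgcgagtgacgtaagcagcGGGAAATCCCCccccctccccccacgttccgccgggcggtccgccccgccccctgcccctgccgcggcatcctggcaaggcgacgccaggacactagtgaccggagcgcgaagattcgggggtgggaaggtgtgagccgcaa
Tnfaip3, chr10:19015361-19015660, minus strand: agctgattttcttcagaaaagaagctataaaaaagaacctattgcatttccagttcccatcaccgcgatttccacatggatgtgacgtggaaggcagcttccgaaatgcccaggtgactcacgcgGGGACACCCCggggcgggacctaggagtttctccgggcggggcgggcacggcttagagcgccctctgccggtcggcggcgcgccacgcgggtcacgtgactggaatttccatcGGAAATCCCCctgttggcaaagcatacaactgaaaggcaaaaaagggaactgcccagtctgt
Nfkb2, chr19:46304487-46304786, plus strand: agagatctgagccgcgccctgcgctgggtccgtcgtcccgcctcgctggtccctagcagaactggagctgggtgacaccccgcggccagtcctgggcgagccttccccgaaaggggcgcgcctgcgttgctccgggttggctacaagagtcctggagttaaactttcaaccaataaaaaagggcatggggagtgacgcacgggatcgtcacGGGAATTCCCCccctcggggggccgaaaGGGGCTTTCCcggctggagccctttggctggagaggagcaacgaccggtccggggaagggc
Nfkbia, chr12:55492598-55492897, minus strand: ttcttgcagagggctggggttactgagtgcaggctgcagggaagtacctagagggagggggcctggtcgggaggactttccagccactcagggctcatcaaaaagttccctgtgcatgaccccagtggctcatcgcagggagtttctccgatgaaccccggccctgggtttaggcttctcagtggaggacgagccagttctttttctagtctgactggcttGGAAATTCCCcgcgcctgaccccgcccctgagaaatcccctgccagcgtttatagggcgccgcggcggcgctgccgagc
Bcl3, chr7:19822706-19823005, minus strand: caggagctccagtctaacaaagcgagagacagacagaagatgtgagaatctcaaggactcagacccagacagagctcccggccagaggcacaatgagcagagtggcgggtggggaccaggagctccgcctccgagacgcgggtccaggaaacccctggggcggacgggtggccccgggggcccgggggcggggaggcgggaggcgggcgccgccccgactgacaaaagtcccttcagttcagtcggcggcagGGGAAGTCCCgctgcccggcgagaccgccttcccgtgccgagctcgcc
The run of capitals in Rel, GGGAAATCCCC, holds 2 overlapping matches, as does the first run in Nfkb2, GGGAATTCCCC, and the latter window has a further match 11 bases before the start. In Tnfaip3 the matches lie 125 and 12 bases before the start, in Nfkbia 29 bases before it and in Bcl3 2 bases after it. Nfkb2 and Tnfaip3 also had windows at other annotated starts, which are not shown. That of Tnfaip3 held no match, and those of Nfkb2 held fewer matches than the window shown. A match describes these letters and is no measurement of binding, and the genes with a match included both genes that rose (Nfkbia and Bcl3) and genes that fell (Rel, Nfkb2 and Tnfaip3) from D0 to D1.

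The main pattern in the data was a change over time shared by both genotypes. No library came from cells cultured without LPS to D1 or D2. The effect of LPS and that of time in culture therefore cannot be told apart. From D0 to D1 of LPS, 4 of the 10 genes rose (Nfkb1, Nfkbia, Nfkbiz and Bcl3) and 6 fell (Nfkb2, Rel, Rela, Relb, Nfkbie and Tnfaip3) in CON, each with an adjusted p under 0.05 in limma. In B-CKO the same 4 rose and the same 6 fell. Over all genes tested, 26.7% were called higher and 30.7% lower in CON, and 27.5% higher and 32.3% lower in B-CKO. From D1 to D2, 1 gene rose (Bcl3) and 7 fell in CON, where 20.1% of all genes were called higher and 24.8% lower. In B-CKO, 2 genes rose (Bcl3 and Nfkbia) and 7 fell over the same interval, with 21.7% of all genes called higher and 24% lower. The comparisons D1 versus D0 and D2 versus D1 share the libraries of D1. A single fit of all 18 libraries, in which every group shares one estimate of the spread, called the same 10 genes from D0 to D1, where it called 63.4% of all genes in CON and 63.7% in B-CKO. From D1 to D2 it called 5 of the 10 in CON and 3 in B-CKO, all of them falls, where it called 14.8% of all genes higher and 16.4% lower in CON and 16.9% higher and 18.4% lower in B-CKO. The calls it did not make over the later interval were those of Rel, Bcl3 and Tnfaip3 in CON and of Nfkb2, Rel, Relb, Nfkbia, Bcl3 and Tnfaip3 in B-CKO.

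**Figure D1:**
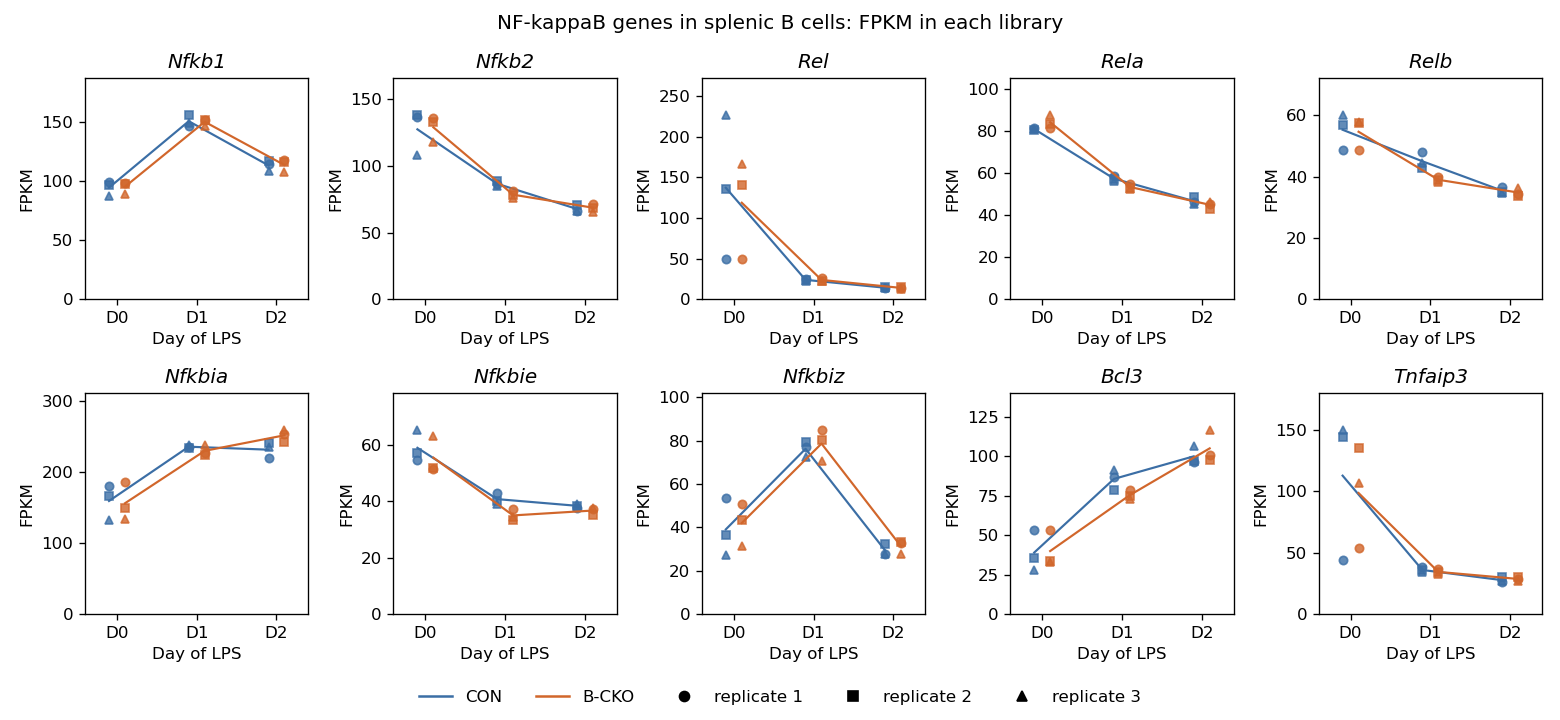
FPKM of the 10 NF-κB genes (y axis, from 0) by day of LPS (x axis), with 1 point per library, the shape giving the replicate number, the colour the genotype, and lines joining the means of 3 libraries. The 2 genotypes follow each other closely, and at D0 the circles (replicate 1) of Rel and Tnfaip3 lie far below the other libraries of both genotypes.

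Of the subunits, Nfkb1 was the only one that rose. Its transcript, which encodes p105, the precursor of p50, was measured at D0 at 99.2, 97.2 and 87.5 FPKM in the 3 CON libraries (in order of replicate number) and at 98.8, 98.0 and 89.6 in B-CKO. At D1 it reached 147.1, 156.2 and 149.9 FPKM in CON and 152.4, 152.4 and 147.0 in B-CKO. At D2 the values were 115.1, 116.9 and 108.6 FPKM in CON and 117.7, 116.2 and 107.6 in B-CKO. Every D1 library lay above every D0 and D2 library, and within each day the genotypes overlapped. The rise from D0 to D1 was 0.67 on the log2(FPKM + 1) scale in CON (SE 0.064, adjusted p = 0.000218) and 0.65 in B-CKO (SE 0.055, adjusted p = 1e-04). The later fall was -0.41 in CON (adjusted p = 0.000294) and -0.40 in B-CKO (adjusted p = 0.000352), and the D2 means stayed 1.20-fold and 1.19-fold above D0.

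Nfkb2, which encodes p100 and its product p52, fell at each step. At D0 it stood at 136.6, 138.2 and 107.9 FPKM in CON and 136.0, 132.8 and 118.4 in B-CKO. The D1 libraries gave 86.5, 88.7 and 84.8 FPKM in CON and 81.3, 78.1 and 76.0 in B-CKO, and those of D2 gave 66.2, 71.1 and 66.0 in CON and 71.7, 68.7 and 65.6 in B-CKO. Days did not overlap within a genotype, and at D1 all B-CKO libraries lay below all CON libraries. From D0 to D1 Nfkb2 fell by 0.54 in CON (SE 0.10, adjusted p = 0.00432) and by 0.71 in B-CKO (SE 0.067, adjusted p = 0.00016). From D1 to D2 it fell by 0.35 in CON (SE 0.038, adjusted p = 0.000475) and by 0.19 in B-CKO (SE 0.044, adjusted p = 0.011, and 0.0827 in the single fit of all 18 libraries), and at D2 the means of both genotypes were 0.53-fold those of D0.

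Rel, encoding c-Rel, showed the largest fall of the 10 genes and the largest scatter at D0. The D0 libraries held 49.7, 135.4 and 226.8 FPKM in CON and 49.9, 140.1 and 166.5 in B-CKO. At D1 the values had come together at 25.1, 23.3 and 22.6 FPKM in CON and 25.5, 22.6 and 22.7 in B-CKO. At D2 they were 13.8, 14.8 and 13.3 FPKM in CON and 13.9, 15.4 and 11.9 in B-CKO. Even the lowest D0 library was above every D1 library, and every D1 library above every D2 library. The change from D0 to D1 was -2.24 in CON (SE 0.51, adjusted p = 0.0101) and -2.11 in B-CKO (SE 0.43, adjusted p = 0.00551). Without the CON library numbered 1 at D0 it was -2.84 (adjusted p = 0.000295), and without the B-CKO library of that number -2.65 (adjusted p = 2.24e-05). The D0 libraries numbered 3 lay above their group mean, by 0.97 in CON and 0.66 in B-CKO, so that leaving them out makes the fall smaller. From D1 to D2 Rel fell by 0.72 in CON (adjusted p = 0.000129) and by 0.74 in B-CKO (adjusted p = 0.000771), calls that were lost in the single fit of all 18 libraries (adjusted p = 0.255 and 0.23). The D2 means were 0.102-fold and 0.116-fold those of D0.

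Rela, the p65 subunit with the main activating domain of the canonical dimer, was the steadiest of the genes at D0. Its D0 values were 81.3, 80.6 and 80.9 FPKM in CON and 81.3, 83.5 and 87.5 in B-CKO. Lower values were found at D1, with 58.6, 57.3 and 56.1 FPKM in CON and 54.9, 52.6 and 52.5 in B-CKO, and at D2, with 46.1, 48.7 and 45.1 in CON and 45.2, 43.0 and 46.3 in B-CKO. B-CKO libraries all lay above CON at D0, by as little as 0.05 FPKM, and all below CON at D1, while at D2 the genotypes overlapped. The change from D0 to D1 was -0.49 in CON (SE 0.045, adjusted p = 0.000176), and -0.65 in B-CKO (SE 0.050, adjusted p = 6.67e-05). The changes from D1 to D2 were -0.29 in CON (adjusted p = 0.000935) and -0.24 in B-CKO (adjusted p = 0.00224).

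Relb, the partner of p52, was the subunit with the smallest fall from D0 to D1. It measured 48.8, 57.0 and 60.0 FPKM at D0 in CON and 48.6, 57.5 and 57.7 in B-CKO. By D1 it was at 47.9, 42.8 and 44.3 FPKM in CON and at 39.7, 39.0 and 38.1 in B-CKO. By D2 it was at 36.6, 34.9 and 34.6 FPKM in CON and at 34.4, 33.5 and 36.4 in B-CKO. In CON the lowest D0 library and the highest D1 library, both numbered 1, were 0.96 FPKM apart. The change from D0 to D1 was -0.29 in CON (SE 0.091, adjusted p = 0.0347) and -0.47 in B-CKO (SE 0.078, adjusted p = 0.00205). In CON this call was lost with the replicate number as a block (adjusted p = 0.0799, and 0.0593 with only genes of at least 1 FPKM), with scaling by the median ratio (adjusted p = 0.0586) and without any 1 of 5 of the 6 libraries, in which the adjusted p ranged up to 0.117, and it was kept without the D0 library numbered 1 (adjusted p = 0.00507). The change from D1 to D2 was -0.34 in CON (adjusted p = 0.0015) and -0.16 in B-CKO (adjusted p = 0.0166), and the latter call was lost in the single fit of all 18 libraries (adjusted p = 0.129), with scaling by the median ratio (adjusted p = 0.0644) and without the B-CKO libraries D1 replicate 1 (0.0644), D1 replicate 2 (0.0576) or D2 replicate 1 (0.0574).

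Among the inhibitors, Nfkbia had the highest mean level of the 10 genes in all 6 groups, though not in every D0 library: in the library numbered 3, Rel was above it in both genotypes and Tnfaip3 in CON. It encodes IκBα, which binds canonical dimers in the cytoplasm and is made again soon after the pathway is switched on. At D0 it was at 179.9, 165.7 and 132.1 FPKM in CON and at 185.5, 149.0 and 133.5 in B-CKO. At D1 it was at 235.5, 233.6 and 237.8 FPKM in CON and at 227.3, 223.8 and 238.4 in B-CKO, and at D2 at 219.3, 240.4 and 234.6 in CON and at 253.3, 242.9 and 258.9 in B-CKO. Every D1 library exceeded every D0 library, and at D2 every B-CKO library exceeded every CON library. The rise from D0 to D1 was 0.57 in CON (SE 0.11, adjusted p = 0.00549) and 0.57 in B-CKO (SE 0.12, adjusted p = 0.00632). From D1 to D2 the difference in CON was -0.03 (SE 0.041, adjusted p = 0.644) and that in B-CKO was 0.13 (SE 0.041, adjusted p = 0.0385). The B-CKO call was lost in the single fit of all 18 libraries (adjusted p = 0.411), after rescaling to TPM (adjusted p = 0.142) and without D1 replicate 1 (0.117), D1 replicate 2 (0.133), D2 replicate 1 (0.106) or D2 replicate 3 (0.0792).

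Nfkbie, encoding IκBε, a cytoplasmic inhibitor of RelA and c-Rel dimers, went the other way. The D0 values were 54.6, 57.2 and 65.3 FPKM in CON and 51.5, 51.9 and 63.2 in B-CKO. The D1 values were 43.1, 40.2 and 39.1 FPKM in CON and 37.3, 33.4 and 34.4 in B-CKO, and the D2 values 37.7, 38.5 and 39.1 in CON and 37.2, 35.3 and 37.8 in B-CKO. D1 lay below D0 in every library of both genotypes, and at D1 all B-CKO libraries lay below all CON libraries. From D0 to D1 Nfkbie fell by 0.52 in CON (SE 0.082, adjusted p = 0.00195) and by 0.65 in B-CKO (SE 0.094, adjusted p = 0.00118). The D1 to D2 differences of -0.08 in CON (adjusted p = 0.155) and 0.07 in B-CKO (adjusted p = 0.326) did not pass the test.

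Nfkbiz and Bcl3 encode nuclear IκB proteins, IκBζ and Bcl-3, which act on promoters together with p50 or p52 rather than holding dimers in the cytoplasm. Nfkbiz stood at 53.5, 36.6 and 27.1 FPKM in the CON libraries of D0 and at 50.7, 43.6 and 31.6 in those of B-CKO. It rose to 77.0, 79.2 and 72.5 FPKM at D1 in CON and to 84.8, 80.5 and 70.6 in B-CKO. It then returned to 27.8, 32.4 and 27.6 FPKM at D2 in CON and to 32.7, 33.0 and 27.6 in B-CKO. The D1 libraries stood clear of both other days, and D0 and D2 overlapped in each genotype. The rise to D1 was 1.00 in CON (SE 0.23, adjusted p = 0.00979) and 0.91 in B-CKO (SE 0.17, adjusted p = 0.00399). The fall to D2, of -1.36 in CON (SE 0.068, adjusted p = 3.5e-05) and -1.31 in B-CKO (SE 0.091, adjusted p = 5.87e-05), was the largest of the 10 genes over that interval in both genotypes.

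Bcl3 rose at both steps. It was at 53.1, 35.8 and 28.2 FPKM in CON and 53.4, 33.6 and 32.9 in B-CKO at D0. On D1 the CON libraries held 87.2, 78.8 and 91.1 FPKM and the B-CKO libraries 78.9, 74.7 and 72.9, and on D2 they held 96.4, 97.1 and 106.6 and 101.1, 97.5 and 116.6. Each day lay above the previous one in every library. The first step was 1.16 in CON (SE 0.22, adjusted p = 0.00432) and 0.94 in B-CKO (SE 0.18, adjusted p = 0.0047), and D2 means were 2.56-fold and 2.63-fold those of D0. The second step was 0.22 in CON (SE 0.064, adjusted p = 0.028) and 0.47 in B-CKO (SE 0.070, adjusted p = 0.00165). In the single fit of all 18 libraries the second step was called in neither genotype (adjusted p = 0.442 in CON and 0.0735 in B-CKO). In CON it was not called after rescaling to TPM (adjusted p = 0.0644) or without D1 replicate 1 (0.0653), D1 replicate 2 (0.0685), D2 replicate 2 (0.0521) or D2 replicate 3 (0.0852).

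Tnfaip3 moved much as Rel did. The D0 libraries held 43.8, 144.2 and 149.5 FPKM in CON and 53.4, 135.3 and 106.6 in B-CKO. The D1 libraries held 38.1, 35.5 and 34.0 FPKM in CON and 36.3, 34.1 and 32.3 in B-CKO, and those of D2 26.0, 30.0 and 26.8 in CON and 28.4, 30.5 and 26.7 in B-CKO. The D0 library numbered 1 lay close above the D1 libraries in CON, and the other D0 libraries were far above. From D0 to D1 Tnfaip3 fell by 1.43 in CON (SE 0.47, adjusted p = 0.0378) and by 1.40 in B-CKO (SE 0.32, adjusted p = 0.00928). Without the CON library numbered 1 at D0 the change was -2.01 (adjusted p = 3.03e-05), and the CON call was lost without any 1 of the other 5 libraries, with changes between -1.48 and -1.13 and adjusted p between 0.0863 and 0.124. From D1 to D2 it fell by 0.37 in CON (adjusted p = 0.00379) and by 0.26 in B-CKO (adjusted p = 0.0136, and 0.0513 without D1 replicate 1). In the single fit of all 18 libraries neither of these later falls was called (adjusted p = 0.523 in CON and 0.663 in B-CKO).

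**Figure D2:**
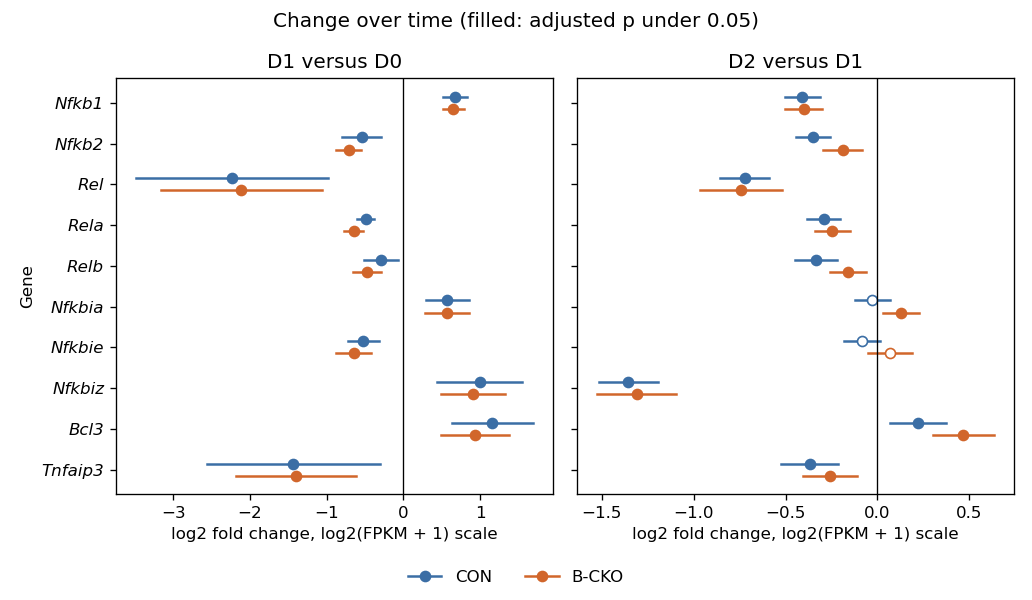
log2 fold changes of the 10 genes (x axis, log2(FPKM + 1) scale) from D0 to D1 and from D1 to D2 in CON and B-CKO, with 95% intervals from limma as bars and filled points for an adjusted p under 0.05. Rel and Tnfaip3 have the widest intervals from D0 to D1, and over D1 to D2 only Nfkbia in CON and Nfkbie in both genotypes are open.

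Because FPKM are scaled by length, levels can be compared between genes. In CON the order of the means at D0, from 159.2 FPKM down, was Nfkbia, Rel, Nfkb2, Tnfaip3, Nfkb1, Rela, Nfkbie, Relb, Nfkbiz and Bcl3. At D1 it was Nfkbia, Nfkb1, Nfkb2, Bcl3, Nfkbiz, Rela, Relb, Nfkbie, Tnfaip3 and Rel, the last at a mean of 23.7 FPKM. By these means Bcl3 went from the last place at D0 to the fourth at D1 and the third at D2 (100.03 FPKM). Rel was last of the 10 in every library of D1 and D2. Its place at D0, the second by mean in CON and the third in B-CKO, differed between libraries: 7 genes in CON and 8 in B-CKO lay above it in the libraries numbered 1, 3 and 1 in those numbered 2, and 0 in those numbered 3. Between the means of Nfkb2 and Bcl3 at D1 (86.7 and 85.7 FPKM), or of Nfkbiz and Bcl3 at D0 (39.1 and 39.0 FPKM), the libraries overlapped. The summed level of the 10 genes was 800.4 to 965.2 FPKM in the D0 libraries of CON and 685.1 to 724.7 at D2, while in B-CKO it was 809.2 to 925.2 and 716.1 to 735.7.

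By the correlation of group means over the 6 groups on the log2(FPKM + 1) scale, the genes formed sets, given here as a description since the groups share days and libraries. Nfkb2, Rel, Rela, Relb, Nfkbie and Tnfaip3 had r between 0.925 and 0.997 with each other, and Nfkbia and Bcl3 had 0.980. Nfkb2 was most like Rela (r = 0.997) and Rel most like Tnfaip3 (r = 0.997). Nfkb1 was most like Nfkbiz (r = 0.780), both having their highest level at D1.

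At D0 the 10 genes differed widely in how far libraries of a group lay apart, and for 7 of them each number deviated in the same direction in both genotypes. The exceptions were the libraries numbered 1 and 3 of Rela and those numbered 2 of Nfkbia and Nfkbiz. The share of all genes that deviated in this way was not counted, so it is not shown to be particular to these genes. The SD of Rel on the log2(FPKM + 1) scale was 1.10 in CON and 0.93 in B-CKO, rank 45 of 9979 and rank 61 of 9968 genes whose mean reached 1 FPKM, and whose medians were 0.171 and 0.159. For Tnfaip3 it was 0.99 (rank 64) and 0.69 (rank 137). Rela was at the other end in CON, with 0.0064 (rank 9966), and had 0.053 in B-CKO (rank 9099). The libraries numbered 1 were lowest in Rel and Tnfaip3 in both genotypes, with deviations from the group mean of -1.20 and -1.06 for Rel and -1.15 and -0.77 for Tnfaip3. They were highest in Nfkbiz (0.50 and 0.29), Bcl3 (0.48 and 0.45) and Nfkbia (0.19 and 0.26). At D1 and D2 no SD of the 10 genes was above 0.175.

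Of the 9 genes of the handling list, 6 had the libraries numbered 1 at the same end in both genotypes at D0. Egr1 was at 412.2, 153.5 and 69.4 FPKM in CON and at 239.0, 136.9 and 93.2 in B-CKO, highest in the libraries numbered 1. Atf3 was at 26.0, 126.6 and 113.1 FPKM in CON and at 28.8, 126.0 and 83.4 in B-CKO, lowest in those libraries. Rel and Tnfaip3 lay with Atf3, Fosb and both Hspa1 genes, and Nfkbiz and Bcl3 with Egr1 and Ier2, in that the libraries numbered 1 were lowest or highest in both genotypes. For Fos and Dusp1 those libraries lay between the others in both genotypes, and for Jun they lay between the others in CON and were lowest in B-CKO. Whether dissociation, sorting or another step that goes with the number has a part in these values was not tested.

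**Figure D3:**
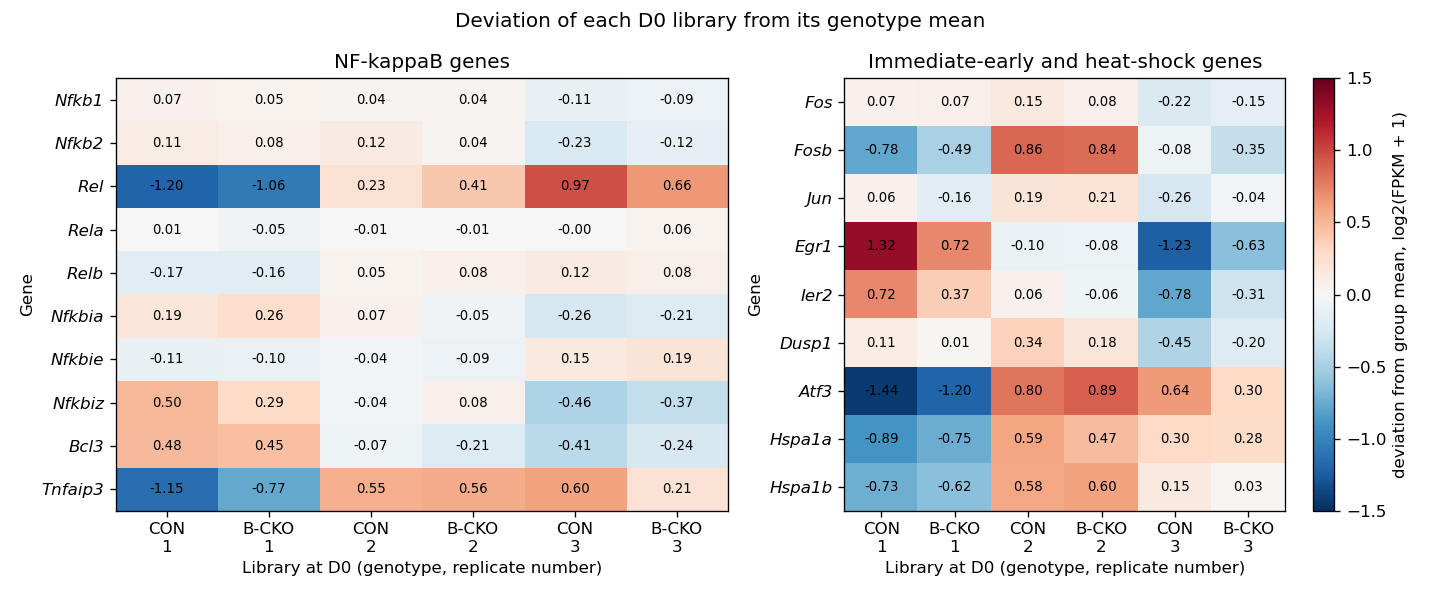
Deviation of each D0 library from the mean of its genotype (colour and printed value, log2(FPKM + 1) scale) for the 10 NF-κB genes and the 9 immediate-early and heat-shock genes (y axes), with the libraries ordered by replicate number (x axes). Libraries of the same number deviate in the same direction in both genotypes for Rel, Tnfaip3 and Egr1, and Rel goes from -1.20 to 0.97 in CON.

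The comparison of the genotypes asks whether loss of Zbtb24 in B cells changes these genes before or after LPS. At D0 no NF-κB gene was called, where 0% of the 15641 genes tested were called by limma. At an unadjusted p under 0.05 there were 0 of the 10 genes and 2% of all genes (313), and none of the 10 was called in any alternative. The differences between B-CKO and CON lay between -0.13 (Rel) and 0.13 (Nfkbiz), with a 95% interval from -1.74 to 1.48 for Rel and from -0.10 to 0.21 for Rela. With the replicate number as a block, the limma interval was narrower. It ran from -0.43 to 0.17 for Rel (adjusted p = 0.918) and from -0.51 to 0.31 for Tnfaip3 (adjusted p = 0.948). The block was taken because D0 libraries of the same number deviated together in these same data. No label states a pairing of the genotypes, so the narrower interval is no independent bound. Within numbers 1, 2 and 3, Rel differed between B-CKO and CON by 0.0048, 0.049 and -0.44. Nfkbie was lower in B-CKO within each number (-0.0822, -0.1378 and -0.0462), with an adjusted p of 0.868 in limma with the block. Rela was higher within each number (9e-04, 0.0514 and 0.1125), with an adjusted p of 0.918 in the same fit. The other genes had differences of both signs. Rela was the 1 gene with every B-CKO library above every CON library, an arrangement found in 1.92% of all genes and 1.65% of those with a mean of at least 1 FPKM. Without both libraries numbered 1 the differences were -0.20 for Rel and -0.29 for Tnfaip3.

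At D1 the differences were below 0 for 9 of the 10 genes, against 52.4% of all genes, and for 7 of the 10 with scaling by the median ratio, under which Nfkb1 and Rel were above 0. None passed the threshold of 0.05 in the fit of all genes above 0 FPKM, in which 0.0993% of the genes (15 of 15104) were called. At an unadjusted p under 0.05 there were 5 of the 10 genes, Nfkb2, Rela, Relb, Nfkbie and Bcl3, all lower in B-CKO, against 16.3% of all genes (2463). Every B-CKO library lay below every CON library for 4 of the 10 (Nfkb2, Rela, Relb and Nfkbie), against 11.7% of all genes and 15.9% of those with a mean of at least 1 FPKM. Nfkbie differed by -0.22 (95% interval -0.34 to -0.09, adjusted p = 0.134, limma), a mean of 35.0 ± 2.00 FPKM in B-CKO against 40.8 ± 2.04 in CON (SD, n = 3, limma). Relb differed by -0.20 (-0.31 to -0.10, adjusted p = 0.112), at 38.9 ± 0.79 against 45.0 ± 2.61 FPKM. Bcl3 differed by -0.18 (-0.32 to -0.04, adjusted p = 0.198), Nfkb2 by -0.14 (-0.22 to -0.07, adjusted p = 0.125) and Rela by -0.10 (-0.17 to -0.03, adjusted p = 0.166), and the ratios of the means of these 5 genes lay between 0.858 and 0.931. With only genes whose mean reached 1 FPKM, Relb (adjusted p = 0.0391) and Nfkbie (adjusted p = 0.0458) passed, among 388 genes called (4% of 9711 tested), and with the replicate number as a block in addition also Nfkb2 (adjusted p = 0.0432), among 704 (7.25%). Deviations from the group means correlated at 0.091 to 0.200 between D1 libraries of the same number, so a pairing of the genotypes by number is not established there. The B cell markers moved with these genes: at D1 the 7 markers summed to 1958 to 2023 FPKM in B-CKO against 2097 to 2265 in CON, with 4 of the 7 lower under an unadjusted p of 0.05 and 0 called by limma. The dendritic cell list was higher in B-CKO at D1, with sums of 9.31 to 10.01 FPKM against 6.80 to 7.36 in CON, nearly all of it Flt3 (8.72 to 9.49 against 6.39 to 6.77 FPKM, adjusted p = 0.0586, limma). The sums of the other marker lists overlapped between the genotypes at D1. The part of these markers in the differences was not tested. For Nfkb1 the difference was -0.00 with an interval from -0.08 to 0.07, and for Rel -0.01 with an interval from -0.15 to 0.13.

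At D2 no NF-κB gene was called, with 0.046% of the genes (7 of 15210) called. Under an unadjusted p of 0.05 there was 1 of the 10, Nfkbia, against 7.71% of all genes (1172). Nfkbia was higher in B-CKO by 0.12 (0.00 to 0.24, adjusted p = 0.64, limma), at 251.7 ± 8.12 against 231.4 ± 10.9 FPKM, and was the only gene of the 10 with every B-CKO library above every CON library, as in 4.89% of all genes and 6.04% of those with a mean of at least 1 FPKM. The differences of the other 9 genes lay between -0.06 (Nfkbie) and 0.09 (Nfkbiz). None of the 10 passed in any alternative at D2. On that day the sums of 3 marker lists did not overlap between the genotypes, with none of their genes called by limma. The myeloid list was at 3.52 to 4.93 FPKM in B-CKO against 5.33 to 6.91 in CON, the erythroid list at 11.6 to 16.3 against 9.67 to 9.93, and the dendritic cell list was higher in B-CKO as given above. Nearly all of the erythroid sum was Hbb-bt, at 11.55 to 16.03 FPKM in B-CKO against 8.66 to 9.72 in CON. The means of Hba-a1, Hba-a2, Hbb-bs and Alas2 were not higher in B-CKO. The part of these lists in the D2 differences was not tested.

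**Figure D4:**
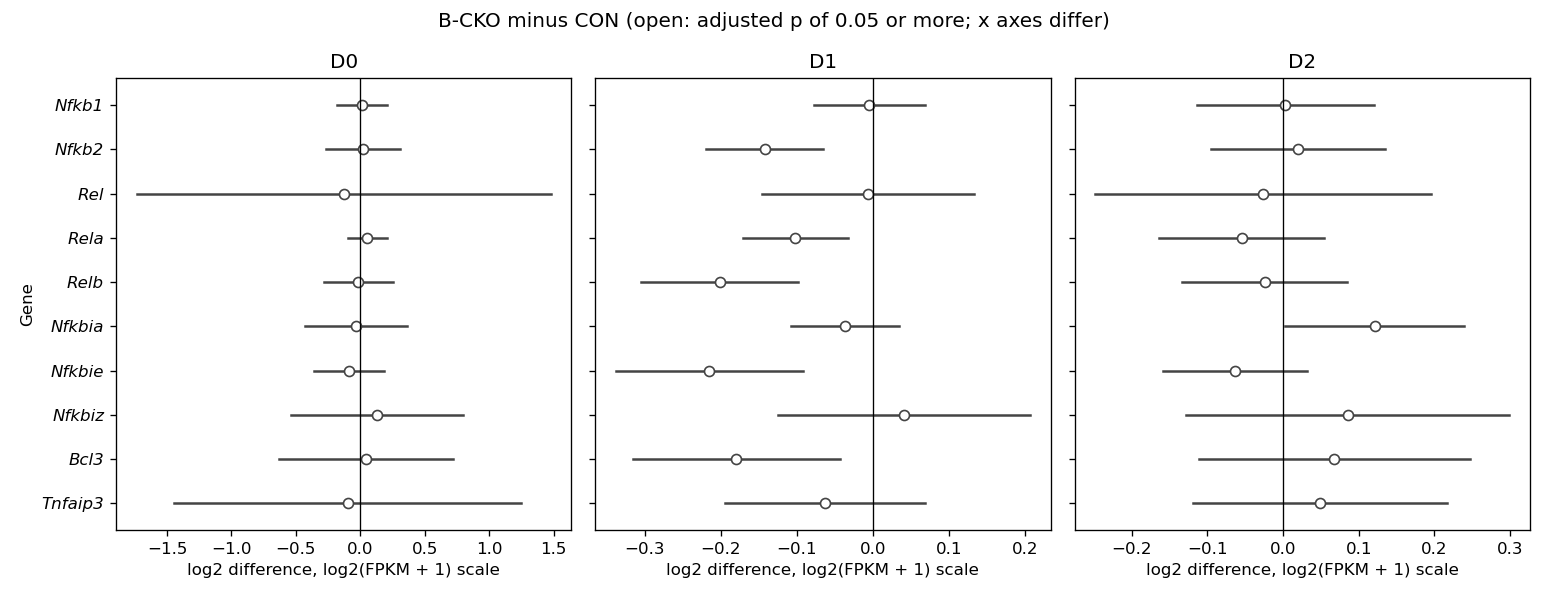
Difference of B-CKO from CON for the 10 genes at D0, D1 and D2 (x axes, log2(FPKM + 1) scale, which differ in range), with 95% intervals from limma as bars and open points since no adjusted p was under 0.05. At D1 the intervals of Nfkb2, Rela, Relb, Nfkbie and Bcl3 lie below 0, and at D2 that of Nfkbia lies above 0.

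Whether the genotypes changed differently over time was tested by the difference between their changes. For D0 to D1 none of the 10 genes was called and 0% of the 16182 genes were, with 1 of the 10 (Rela) and 2.89% of all genes (467) under an unadjusted p of 0.05. Rela fell further in B-CKO by 0.16 (adjusted p = 1, limma, interval -0.28 to -0.03). For D1 to D2, likewise, none of the 10 and 0% of the 15844 genes were called, with 5 of the 10 (Nfkb2, Relb, Nfkbia, Nfkbie and Bcl3) and 7.31% of all genes (1158) under an unadjusted p of 0.05. All 5 had a more positive change in B-CKO, from 0.15 (Nfkbie, adjusted p = 0.673) to 0.25 (Bcl3, adjusted p = 0.649). These differences use the D1 libraries that also give the differences at D1, so the lower D1 values of B-CKO enter both.

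Other genes of the pathway mostly fell from D0 to D1. Of 23 genes for kinases, adaptors and upstream components, 0 rose and 16 fell in CON, and 1 rose and 17 fell in B-CKO, where the median changes were -0.59 and -0.64 against -0.02 over all genes in each genotype. Of 16 further inhibitors and modulators, 3 rose and 9 fell in CON, and 3 rose and 11 fell in B-CKO. These counts stand against 26.7% of all genes called higher and 30.7% lower in CON, and 27.5% and 32.3% in B-CKO. Nfkbid, encoding the nuclear IκB protein IκBNS, fell the most, from 202.0 ± 46.3 to 34.5 ± 1.10 FPKM in CON (-2.49, adjusted p = 4.06e-05), followed by Malt1, the paracaspase of the antigen receptor branch (104.0 ± 30.2 to 27.0 ± 0.98, -1.87, adjusted p = 0.000293), and Map3k14, the NIK kinase of the noncanonical pathway (28.8 ± 5.44 to 8.83 ± 0.60, -1.58, adjusted p = 0.000182). Nkiras2, which encodes the IκB-binding protein κB-Ras2, rose by 0.70 (adjusted p = 0.033) and Nfkbib, which encodes IκBβ, by 0.32 (adjusted p = 0.00348). Tnip3, the third to rise in CON, reached only 0.10 to 0.19 FPKM in the CON libraries of D1 and 0.31 to 0.36 in those of B-CKO. Between the genotypes limma called none of the 23 and none of the 16 on any day, with 8 and 3 of them under an unadjusted p of 0.05 at D1 (16.3% of all genes) and 4 and 3 at D2 (7.71% of all genes). With only genes of at least 1 FPKM, 1 of each list was called, both lower in B-CKO at D1: Ikbke, a kinase related to the IκB kinases (-0.25, adjusted p = 0.0444), and Zc3h12a, which encodes the RNase Regnase-1 (-0.14, adjusted p = 0.0417), against 4% of all genes. Tnip3, whose mean was below 1 FPKM, differed in the other direction, by 0.21 at D1 (unadjusted p = 0.000598, adjusted p = 0.0805, limma) and by 0.28 at D2 (unadjusted p = 0.000662, adjusted p = 0.172, limma).

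Of 30 known NF-κB target genes, 14 rose and 10 fell in CON from D0 to D1, and 14 rose and 11 fell in B-CKO, with median changes of 0.42 and 0.45 against -0.02 over all genes in each genotype. Of all genes 26.7% were called higher and 30.7% lower in CON, and 27.5% and 32.3% in B-CKO, so that the share of the 30 that fell was near that of all genes. Ccl22, a chemokine gene, rose from 0.19 ± 0.095 to 19.3 ± 4.72 FPKM in CON (4.07, adjusted p = 1.52e-05). Bcl2a1d rose by 3.47 (adjusted p = 7.04e-06) and Bcl2l1, which encodes Bcl-xL, by 2.73 (adjusted p = 1.03e-05), both genes of cell survival. The 3 that fell the most were Plaur (-5.82, adjusted p = 0.000243), Junb (-3.73, adjusted p = 1.67e-05) and Ccr7 (-2.99, adjusted p = 0.00135). Plaur, the urokinase receptor gene, was at 121.4, 474.5 and 583.6 FPKM in the D0 libraries of CON and at 121.1, 410.3 and 552.2 in those of B-CKO. Ccr7, a homing receptor gene, was at 209.1, 598.5 and 669.1 FPKM and at 252.1, 603.7 and 650.2, so that both were lowest in the libraries numbered 1, as Rel and Tnfaip3 were. Between the genotypes none of the 30 target genes was called on any day, with 10 of them under an unadjusted p of 0.05 at D1 (16.3% of all genes) and 8 at D2 (7.71% of all genes). The target genes with the lowest p, named here after their values were seen, were Ltb and Plaur. Ltb, which encodes lymphotoxin beta, was at 53.8, 53.7 and 48.8 FPKM in CON and at 38.4, 34.3 and 31.0 in B-CKO at D1, with no overlap (-0.58, unadjusted p = 0.000183, adjusted p = 0.0586, limma). Plaur was at 6.40, 6.20 and 6.54 FPKM in CON and at 3.60, 3.78 and 4.18 in B-CKO at D2, also without overlap (-0.61, unadjusted p = 9.99e-05, adjusted p = 0.101, limma). With only genes of at least 1 FPKM, Ltb was called at D1 (adjusted p = 0.00539, 4% of all genes called) and Plaur at D2 (adjusted p = 0.0111, 0.294% called), and no other target gene was.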

How the data were processed

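RNA-seq of splenic B cells gave 18 libraries in 6 groups of 3, grouped by their titles. The deposited FPKM table was made by the authors with Bowtie2 on the mm10 mouse genome and Cufflinks or RSEM. The submitters' processing notes also list BWA and DESeq2, with no versions. FPKM are not counts and the fragments per value are not in the table, so no count test was run and depth limits low values to an unknown degree. Genes were matched to symbols by NCBI gene ID, for 16512 of 16545 rows (33 unmatched).

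Values were analysed as log2(FPKM + 1) with limma 3.58.1 in R 4.3.3 (moderated test with an intensity trend, two-sided, Benjamini-Hochberg adjustment over all genes above 0 FPKM in any compared library, threshold 0.05), using only the libraries compared. A fold change on this scale understates that of low genes. The procedure was tested on simulated data with independent noise for each library. The simulation thus left out the shared deviations of D0 libraries of the same number. Figures and tables used python 3.11.15, numpy 2.4.6, pandas 2.3.3 and matplotlib 3.10.9. Some items, also left out of the marker lists, are not reported here. The 10 genes and all lists were chosen with earlier results of these data known. All 10 are named, and of the other pathway genes and targets those 3 that rose and 3 that fell the most from D0 to D1 in CON among those called. Alternatives were a pseudocount of 0.1, the replicate number as a block, a single fit of all libraries, only genes whose mean reached 1 FPKM, values rescaled to TPM or by median ratios, and leaving out each library.

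Whether replicate numbers pair libraries was checked by the correlation of deviations from group means. At D0 it was 0.468 to 0.854 between CON and B-CKO libraries of the same number (mean of other numbers -0.34). The numbers were taken to pair the genotypes there, though no label states such a pairing. The correlation was also above 0.1 for every number between D1 and D2 of B-CKO (0.117 to 0.183). For the other comparisons it was not above 0.1 for every number, and there the numbers were treated as names only. Between the genotypes at D1 it was 0.091 to 0.200, against a mean of -0.066 for other numbers. These values overlap those between D1 and D2 of B-CKO, so a pairing is not established for that comparison either. Whether a number marks the same mouse on all 3 days is not known.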

Additional observations from a re-analysis of the deposited data

Results flagged for a closer look

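Rela was separated between the genotypes in opposite directions on consecutive days. All B-CKO libraries lay above all CON libraries at D0 (difference 0.0549, adjusted p = 1, limma) and below them at D1 (difference -0.102, adjusted p = 0.166). The difference between the genotypes in the change from D0 to D1 was -0.16 (unadjusted p = 0.0188, adjusted p = 1, limma), so it did not pass over all genes. At D0 the nearest libraries of the genotypes were 0.05 FPKM apart.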

How the results depend on the processing

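Over 1310 alternative values of the 10 genes, 1194 kept direction and side of the threshold, 37 lost a call, 5 gained one and 74 changed sign. No called change over time changed sign (0 of them). The median of all genes of at least 1 FPKM from D0 to D1 moved to -0.14 in both genotypes after rescaling to TPM, from 0.02 in CON and 0.01 in B-CKO. At D1 the number of the 10 genes called between genotypes rose from 0 to 2 with a mean of at least 1 FPKM, and to 3 with the replicate block in addition. The pairing of the genotypes by number that this block assumes is not established at D1. The single fit of all 18 libraries called 5 genes from D1 to D2 in CON and 3 in B-CKO, instead of 8 and 9, while its calls over all genes were 4743 in CON and 5388 in B-CKO, instead of 6820 and 6964. The cause was not tested. The combined block and filter, the filter on the other pathway and target genes, and leaving out both D0 libraries numbered 1, were chosen after seeing the data.

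With the replicate block alone, 0 of the 10 genes were called between genotypes on each day and 0 in both differences of change, and 9 were called from D0 to D1 and 8 from D1 to D2 in CON (54.8% and 41.8% of all genes), and 10 and 9 in B-CKO (57.3% and 42.8%). Where the correlation between libraries of the same number was above 0.1 for every number (genotypes at D0, and D1 to D2 in B-CKO), the block changed no call. The call lost was that of Relb in CON from D0 to D1, where the correlation between libraries of the same number was 0.0346 to 0.0439.

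The values that changed sign had not been called. After rescaling to TPM these were Nfkb1 between genotypes at D0 (-6.68e-05) and D2 (-0.0209), Nfkb2 at D2 (-0.00415) and the difference in change D1 to D2 of Nfkb1 (-0.00375). With the median ratio they were Nfkb1 (0.0113) and Rel (0.00901) at D1, Nfkbia from D1 to D2 in CON (0.0209), and the differences in change of Nfkbia from D0 to D1 (0.00273) and of Nfkb1 from D1 to D2 (-0.00184). Without both D0 libraries numbered 1, the difference in change D0 to D1 of Nfkbia was 0.0321.

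Leaving out each library in turn, the genotype difference at D0 ranged from -0.177 to 0.287 for Bcl3, -0.0424 to 0.0575 for Nfkb1, -0.092 to 0.085 for Nfkb2, -0.162 to 0.0738 for Nfkbia, -0.101 to 0.377 for Nfkbiz, -0.729 to 0.402 for Rel, -0.101 to 0.0646 for Relb and -0.673 to 0.286 for Tnfaip3. At D1 it ranged from -0.0232 to 0.0196 for Nfkb1, -0.0151 to 0.116 for Nfkbiz and -0.0601 to 0.0355 for Rel. At D2 it ranged from -0.00904 to 0.119 for Bcl3, -0.0281 to 0.043 for Nfkb1, -0.011 to 0.0541 for Nfkb2, -0.107 to 0.0662 for Rel and -0.0572 to 0.00161 for Relb. Nfkbia from D1 to D2 in CON ranged from -0.0547 to 0.0114. The difference in change D0 to D1 ranged from -0.0621 to 0.0379 for Nfkb1, -0.11 to 0.126 for Nfkbia, -0.336 to 0.142 for Nfkbiz, -0.408 to 0.723 for Rel and -0.349 to 0.61 for Tnfaip3, and that for D1 to D2 from -0.0236 to 0.0476 for Nfkb1, -0.0308 to 0.126 for Nfkbiz and -0.101 to 0.0724 for Rel.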
